A study of Mus musculus with 8 samples.

Results

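The genes described here code for the machinery that fuses vesicles with the plasma membrane and releases transmitters and peptides from nerve terminals. They were found by name in a table of genes that mark cell clusters of the mouse dorsal root ganglion: synaptotagmins (Syt and a number), syntaxins (Stx and a number), VAMPs, complexins, SV2 proteins, Rab3a to Rab3d, the synapsins Syn1 to Syn3, and Snap25. This rule found 44 of the 9229 genes of the table, and no measured value entered it. Dorsal root ganglia contain the somata of sensory neurons and their supporting cells. They came from C57BL/6 mice 21 to 30 days old, and 4 mice were combined in a sample. Dissociated living cells of all samples were exposed to an antibody against the proteasome subunit β5, which marks the neuronal membrane proteasome (NMP), and were sorted by their fluorescence. The labels give 4 NMP-positive and 4 NMP-negative samples, whose descriptions differ within a population only in a lane number. They were read as sequencing lanes of 1 library per population, and no biological replicate is named. The table has no column for a sample, so it pools both populations, and no gene could be compared between NMP-positive and NMP-negative cells.

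Release begins when a vesicle is tethered and primed at the membrane. The vesicle protein VAMP then zips together with syntaxin and SNAP-25 of the plasma membrane into a SNARE complex, complexin clamps and later assists this complex, and a synaptotagmin on the vesicle senses calcium and triggers fusion. Rab3 GTPases guide vesicles to release sites, synapsins tie vesicles into a reserve pool, and SV2 proteins are vesicle glycoproteins that also serve as entry receptors of botulinum toxin. Sensory neurons use this machinery at their spinal synapses and for the release of peptides such as CGRP and substance P, while other syntaxins and VAMPs serve membrane traffic in every cell type.

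All log2 fold changes and shares of cells below are values of the authors' deposited table, which sets each of 20 clusters against all other cells, except shares out of all cells, which were solved from it. A share is the percentage of cells in which a transcript of the gene was detected. "Higher" and "lower" mean that the deposited adjusted p-value was under 0.05, by the sign of the log2 fold change. These p-values treat cells as the units, and clusters are drawn from the expression of the same cells, so they served only as this filter and test nothing. The sources used here give neither the number of cells nor the depth per cell, so shares carry no interval, and differences between clusters have no replicate error to be read against. The other cells of every comparison include 7 clusters named Unknown, which hold 30.7% of all cells, beside the 3 clusters named Low.UMI (28.6%) and the 10 named neuron clusters (40.8%). A gene missing for a cluster did not pass the limits of the table there and was not read as absent.

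The cluster names were checked against marker genes. In the authors' deposited table, 9 general neuronal markers, among them Tubb3, Uchl1 and Elavl4, were listed in at least 70.1% of the cells of every named neuron cluster that lists them, and only 1 was lower in any of these clusters, in SST. All 9 were lower in each of the 7 Unknown clusters, with median shares of 19.9 to 32.7%. Each Unknown cluster had 5 of 5 markers of a non-neuronal type higher: endothelial cells in Unknown.1, satellite glia in Unknown.2, mural cells in Unknown.3, Schwann cells in Unknown.4, fibroblasts in Unknown.5 and Unknown.6, and macrophages in Unknown 488p. Unknown.4 also had 3 of 5 satellite glia markers higher. They are called endothelial-like, satellite glia-like and so on below, beside the authors' names.

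The release machinery followed the division between neurons and other cells. Over the named neuron clusters, 140 of the 440 combinations of a member and a cluster were higher (31.8%), while 10.9% of combinations over all genes of the table were. Lower members made up 33 combinations (7.50%), close to the 6.72% of all genes, but with an absolute log2 fold change of at least 0.5 they were 0.909%, against 2.89% of all genes. Over the Unknown clusters the direction was the opposite: 189 of 308 combinations were lower (61.4%, all genes 27.1%), and 12 were higher (3.90%, all genes 10.2%). Over the Low.UMI clusters 25 of 132 combinations were higher (18.9%, all genes 10.9%) and 24 were lower (18.2%, all genes 20.6%). Listed members had a median log2 fold change of 0.39 in named neuron clusters, 0.30 in Low.UMI clusters and -0.65 in Unknown clusters, where all listed genes had medians of 0.26, -0.30 and -0.36. In all, 33 members were higher in at least 1 named neuron cluster. Of those, 29 were also lower in at least 1 Unknown cluster. All genes of the table were not counted in this way, so neither number was read as particular to the members. Core release genes (synaptic SNAREs, calcium-sensing synaptotagmins, complexins, synapsins, SV2 and Rab3) made up 23 of the 44 members. They gave 130 of the 189 lower combinations in the Unknown clusters, 80.7% of their 161 combinations there (all genes 27.1%). Of the 12 higher ones they gave 1 (0.621%, all genes 10.2%).

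**Figure D1:**
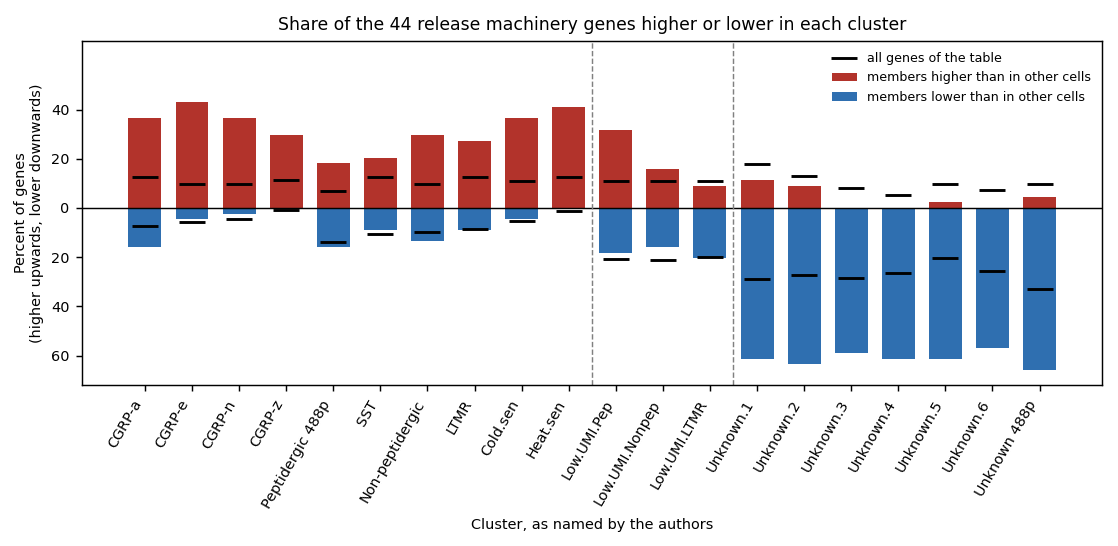
Percentage of the 44 release machinery genes higher (red bars, upwards) or lower (blue bars, downwards) in each cluster than in all other cells, with the percentage over all 9229 genes of the table as black dashes. Lower members reach 56.8 to 65.9% in the 7 Unknown clusters, and higher members 18.2 to 43.2% in the 10 named neuron clusters.

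Among the peptidergic CGRP neurons, CGRP-a had 16 members higher (36.4%, against 12.5% of all genes) and 7 lower (15.9%, all genes 7.26%). CGRP-e had 19 higher (43.2%, all genes 9.77%), the most of the 20 clusters at the limits of the table, and 2 lower (all genes 5.65%). With a log2 fold change of at least 0.5 it had 4 higher (9.09%, all genes 3.75%), and Cold.sen had the most, 10 (22.7%, all genes 4.83%). CGRP-n had 16 higher (all genes 9.61%) and 1 lower (all genes 4.32%). In CGRP-z, 13 were higher (29.5%, all genes 11.3%) and 0 lower (all genes 0.715%). The leading member was Syt4 in CGRP-a (log2 fold change 1.50) and CGRP-e (0.72), Syn2 in CGRP-n (0.85) and Cplx2 in CGRP-z (1.01), so the 4 clusters shared a tilt towards higher members but not a leading gene. Peptidergic 488p had fewer members higher than these 4, with 8 (18.2%), but fewer of all genes were higher there too (7.05%). Its 7 lower members (15.9%, all genes 13.8%) equalled the number in CGRP-a. The lowest member in Peptidergic 488p was Snap25 (-0.82).

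Of the other neurons, SST cells had 9 members higher (20.5%, all genes 12.5%) and 4 lower (9.09%, all genes 10.7%). Non-peptidergic cells had 13 higher (all genes 9.86%) and 6 lower (13.6%, all genes 9.71%), led by Syt7 (1.19). LTMR cells had 12 higher (27.3%, all genes 12.5%) and 4 lower (all genes 8.46%). Cold.sen cells had 16 higher (all genes 11.0%) and 2 lower (all genes 5.44%), and Heat.sen cells 18 higher (40.9%, all genes 12.6%) and 0 lower (all genes 1.18%). Syt1 led all 3 of LTMR (1.35), Cold.sen (1.52) and Heat.sen (1.63).

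The 3 clusters whose name points to few transcript molecules (UMI) per cell were not alike. Low.UMI.Pep had 14 members higher (31.8%, all genes 10.8%) and 8 lower (18.2%, all genes 20.7%), led by Rab3a (0.74). Low.UMI.Nonpep had 7 higher (15.9%, all genes 10.9%) and 7 lower (all genes 21.0%), and Low.UMI.LTMR 4 higher (9.09%, all genes 10.9%) and 9 lower (20.5%, all genes 20.1%). The shares of Low.UMI.LTMR were thus near those of all genes in both directions. In the authors' deposited table, Low.UMI.Pep had Snap25 (0.72), Vamp4 (0.60), Syt4 (0.58) and Syn2 (0.46) higher after Rab3a, and Sv2c (-0.55), Syt7 (-0.40) and Syt1 (-0.34) lower. CGRP-a also had Sv2c, Syt7 and Syt1 lower and Syt4 and Syn2 higher, but Syt9 was lower in Low.UMI.Pep (-0.30) and higher in CGRP-a (0.93). Low.UMI.Nonpep had Syt7 (0.55), Syt5 (0.51) and Sv2c (0.32) higher and Sv2a (-0.35) and Syt2 (-0.25) lower, the same directions as in Non-peptidergic. The members higher in Low.UMI.LTMR were Syt11 (1.15), Stx4a (0.51), Cplx2 (0.30) and Rab3d (0.28), while Sv2a (0.83), Syt7 (0.79), Syt1 (0.95) and Syn1 (0.61) did not pass the filter there.

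In the Unknown clusters the lower members stood at 25 to 29 of 44. Endothelial-like Unknown.1 had 27 lower (61.4%, all genes 28.8%) and 5 higher (11.4%, all genes 18.0%). Satellite glia-like Unknown.2 had 28 lower (63.6%, all genes 27.4%) and 4 higher (all genes 13.0%). Mural-like Unknown.3 had 26 lower (59.1%, all genes 28.4%) and Schwann-like Unknown.4 had 27 (all genes 26.4%), and 0 members were higher in either (all genes 8.05% and 5.21%). The fibroblast-like clusters had 27 lower in Unknown.5 (all genes 20.4%) and 25 in Unknown.6 (all genes 25.5%), with 1 and 0 higher (all genes 9.67% and 7.39%). Macrophage-like Unknown 488p had 29 lower (65.9%, all genes 33.0%) and 2 higher (4.55%, all genes 9.91%). Medians over the listed members lay between -0.75 and -0.53 on the log2 scale in these 7 clusters, and those over all listed genes between -0.40 and -0.31.

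**Figure D2:**
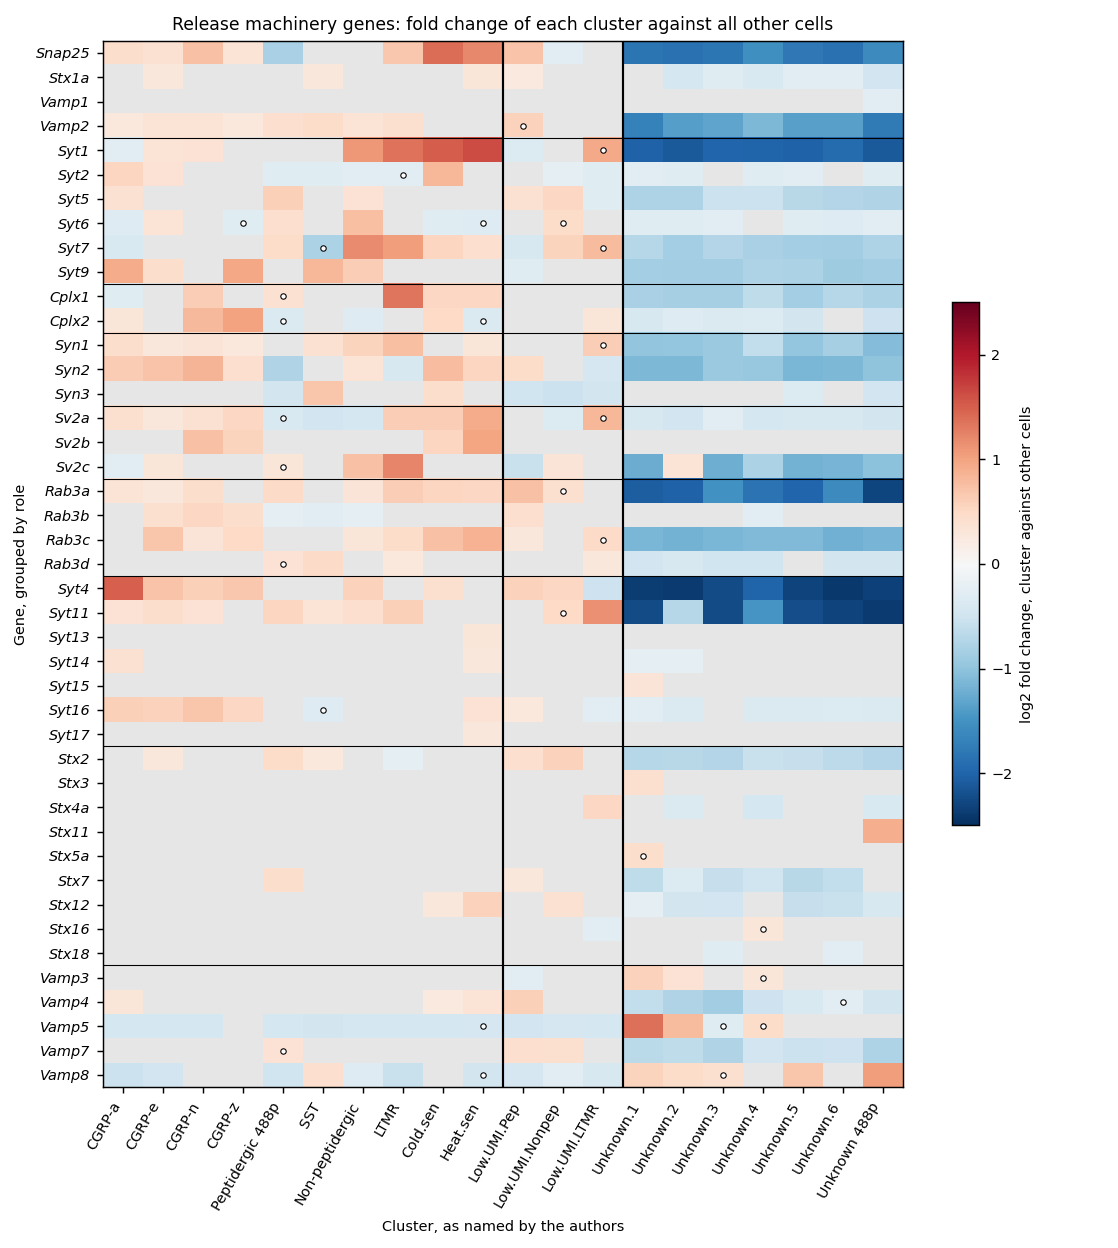
log2 fold change (colour) of 43 release machinery genes (rows, grouped by role) in each cluster (columns) against all other cells. Grey cells are not listed in the table, white dots mark values that did not pass the filter, and vertical lines part the named neuron, Low.UMI and Unknown clusters. Snap25, Syt1, Rab3a, Syt4 and Syt11 carry the deepest blue in the Unknown clusters. Vamp5 and Vamp8 are higher in some Unknown clusters and lower in most named neuron clusters that list them.

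The SNARE genes of the presynaptic membrane and the synaptic vesicle were higher in 24 of 50 combinations with named neuron clusters (all genes 10.9%). They were lower in 28 of 35 with Unknown clusters (all genes 27.1%). Snap25, which codes for the plasma membrane SNARE that botulinum toxin A cuts, was higher in 7 named neuron clusters, where it was found in 99.7 to 100.0% of cells. Its log2 fold change in the authors' deposited table was 1.40 in Cold.sen, 1.21 in Heat.sen, 0.74 in CGRP-n, 0.67 in LTMR, 0.44 in CGRP-a, 0.39 in CGRP-e and 0.35 in CGRP-z. Cold.sen and Heat.sen thus stood above the CGRP clusters. Peptidergic 488p was the exception among the named neuron clusters that list Snap25, with 51.1% of the cluster and 55.2% of other cells (-0.82, lower). SST and Non-peptidergic had no entry. Of the Low.UMI clusters, Low.UMI.Nonpep had Snap25 lower (-0.28, in 30.0% of cells and 58.3% of other cells) and Low.UMI.Pep had it higher (0.72). In the 7 Unknown clusters Snap25 was in 8.5 to 15.3% of cells, with log2 fold changes of -1.87 to -1.53.

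Stx1a codes for a syntaxin of the synaptic SNARE complex. In the authors' deposited table it was higher in 3 named neuron clusters, CGRP-e (0.28, in 93.9% of cells), SST (0.28, in 92.4%) and Heat.sen (0.30, in 81.6%). It was lower in 6 of the 7 Unknown clusters, in 0.7 to 7.9% of their cells.

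Vamp2, the main VAMP of synaptic vesicles, had values close to each other among the neurons. It was higher in 8 named neuron clusters by 0.26 to 0.46 and was found in 97.4 to 100.0% of the cells of 7 of them. Peptidergic 488p was the eighth, at 75.3%, against 60.5% of other cells (0.42). Vamp2 was lower in all 7 Unknown clusters (-1.76 to -1.12), where 10.3 to 35.4% of cells held a transcript. Vamp1, the other VAMP of synaptic vesicles, was listed once, as lower in Unknown 488p (-0.26, 2.7% of the cluster and 31.5% of other cells).

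The calcium-sensing synaptotagmins were higher in 25 of 60 combinations with named neuron clusters (all genes 10.9%) and lower in 7 (all genes 6.72%). With Unknown clusters they were lower in 39 of 42 (all genes 27.1%). Syt1, with Syt2 and Syt9 one of the fast sensors of synchronous release, was in at least 99.1% of the cells of all 7 named neuron clusters that list it. Its fold change nevertheless ran from lower in CGRP-a (-0.28) through 0.35 in CGRP-e and 0.36 in CGRP-n to 1.09 in Non-peptidergic, 1.35 in LTMR, 1.52 in Cold.sen and 1.63 in Heat.sen. Nearly every cell of these clusters had the transcript, so they differed in its average amount and little in the share of cells. In the Unknown clusters Syt1 was in 3.2 to 10.0% of cells (-2.10 to -1.92).

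Syt2 was either frequent or in few cells in the named neuron clusters that list it. The 6 clusters with no entry, among them CGRP-n, CGRP-z and Heat.sen, together held Syt2 in 16.6% of cells. The authors' deposited table gives it in 85.1% of CGRP-a cells and 13.2% of other cells (0.53), in 79.1% of Cold.sen cells and 15.7% of other cells (0.83), and in 69.5% of CGRP-e cells and 16.1% of other cells (0.37). By contrast it was in 1.3% of SST (-0.31), 2.2% of Peptidergic 488p (-0.30) and 7.3% of Non-peptidergic cells (-0.29), all lower. LTMR, with 10.4% of cells (-0.27), did not pass the filter. The shares of these 3 lower neuron clusters reached into the range of the 5 Unknown clusters listed for Syt2, 0.0 to 1.8%, in SST alone.

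Syt9 was higher in 5 named neuron clusters, CGRP-z (0.97), CGRP-a (0.93), SST (0.83), Non-peptidergic (0.62) and CGRP-e (0.44), in 93.5 to 99.3% of their cells. It was not listed for LTMR, Cold.sen or Heat.sen, which were the 3 clusters with the highest Syt1, but the 7 clusters with no entry together held Syt9 in 47.7% of cells. CGRP-e had all 3 fast sensors higher. CGRP-a had Syt9 and Syt2 higher and Syt1 lower, and Non-peptidergic had Syt1 and Syt9 higher and Syt2 lower.

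Syt7, a slow, high-affinity calcium sensor of asynchronous release and vesicle replenishment, was highest in Non-peptidergic (1.19, in 99.8% of cells) and LTMR (1.04, in 100.0%). It was also higher in Cold.sen (0.54), Peptidergic 488p (0.46) and Heat.sen (0.42), and lower in CGRP-a (-0.39) although 75.2% of its cells and 35.7% of other cells held it. SST had the lowest value, -0.79, which did not pass the filter, with 46.4% of its cells. Syt6 was in 93.2% of Non-peptidergic cells (0.75), 67.9% of CGRP-e cells (0.34) and 35.9% of Peptidergic 488p cells (0.42), and in 2.4% of CGRP-a and 4.7% of Cold.sen cells, where it was lower (-0.33 and -0.31). Syt5 was higher in CGRP-a (0.39), Non-peptidergic (0.36) and Peptidergic 488p (0.59). Non-peptidergic cells thus had 5 of the 6 calcium-sensing synaptotagmins higher, all but Syt2.

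Complexins were higher in 8 of 20 combinations with named neuron clusters (all genes 10.9%) and lower in 13 of 14 with Unknown clusters (all genes 27.1%). These small proteins bind the assembled SNARE complex. Cplx1 was highest, in the authors' deposited table, in LTMR (1.33, in 99.7% of cells and 39.2% of other cells), followed by CGRP-n (0.61), Cold.sen (0.52) and Heat.sen (0.52). Cplx2 was highest in CGRP-z (1.01, in 96.3% of cells and 31.5% of other cells), followed by CGRP-n (0.82), Cold.sen (0.50) and CGRP-a (0.31). LTMR had no entry for Cplx2, and CGRP-z none for Cplx1, which does not show absence: clusters with no entry together held Cplx1 in 43.7% and Cplx2 in 28.2% of cells. CGRP-a had Cplx2 higher and Cplx1 lower (-0.30, in 83.7% of cells). Heat.sen had Cplx1 in 88.8% of cells and Cplx2 in 19.4% (-0.36, not past the filter). CGRP-n and Cold.sen had both higher.

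Synapsins were higher in 17 of 30 combinations with named neuron clusters (all genes 10.9%) and lower in 16 of 21 with Unknown clusters (all genes 27.1%). Of them, Syn1 was higher in 8 named neuron clusters by 0.27 to 0.75, in 94.6 to 100.0% of their cells, with the top value in LTMR. Syn2 was higher in 7, led by CGRP-n (0.85), Cold.sen (0.77) and CGRP-e (0.71), and lower in LTMR (-0.41, in 96.4% of cells) and Peptidergic 488p (-0.75, in 34.6% of cells and 46.5% of other cells). LTMR therefore had the highest Syn1 value and a negative Syn2 value in the authors' deposited table. Syn3, the remaining synapsin, was higher in SST (0.69, in 89.2% of cells and 33.5% of other cells) and Cold.sen (0.43, in 80.2%). It was lower in Peptidergic 488p (-0.45, in 22.1%) and in all 3 Low.UMI clusters, where it was in 1.3 to 2.1% of cells. Syn1 and Syn2 were lower in all 7 Unknown clusters, in 1.4 to 9.1% and 3.2 to 8.0% of cells.

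The SV2 genes were higher in 14 of 30 combinations with named neuron clusters (all genes 10.9%) and lower in 13 of 21 with Unknown clusters (all genes 27.1%). Their values differed between the paralogs. Sv2a, the target of the antiepileptic drug levetiracetam, was listed for all 10 named neuron clusters in the authors' deposited table. It was higher in 7 of them, with 99.0% of LTMR, 95.3% of CGRP-z, 94.9% of Heat.sen, 94.3% of CGRP-n, 93.0% of Cold.sen, 90.9% of CGRP-e and 89.9% of CGRP-a cells. The other 3 lay far below, with 20.8% of Peptidergic 488p cells (-0.38, not past the filter), 18.4% of Non-peptidergic cells (-0.43, lower) and 1.1% of SST cells (-0.47, lower). No named neuron cluster lay between 20.8 and 89.9%. SST at 1.1% was within the 0.0 to 4.2% of the 7 Unknown clusters.

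Sv2c was in 99.8% of Non-peptidergic cells (0.74), so that cluster had Sv2c high and Sv2a low. LTMR had both, with Sv2c at 1.22 in 100.0% of cells, and CGRP-e had Sv2c at 0.30. CGRP-a had Sv2c lower (-0.26) though 88.4% of its cells held it. Sv2b was listed in 4 clusters, each time higher: Heat.sen (0.99, in 88.8% of cells and 13.2% of other cells), CGRP-n (0.74), CGRP-z (0.56) and Cold.sen (0.54). These 4 clusters all had Sv2a higher, and none of them had an entry for Sv2c. That is not a sign of absence: the 6 clusters with no entry for Sv2c, these 4, SST and Low.UMI.LTMR, together held it in 79.8% of cells.

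Sv2c was also the 1 core release gene that was higher in an Unknown cluster. In satellite glia-like Unknown.2 it was in 54.8% of cells and 46.7% of other cells (0.34). The other 6 Unknown clusters held it in 3.1 to 11.4% of cells, each lower (-1.25 to -0.80). Sv2a and Snap25 were in 0.7% and 13.6% of Unknown.2 cells, both lower, so neither shared the pattern of Sv2c there. Transcripts from outside the cell can enter droplets, and their part in the share of any gene was not tested.

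The Rab3 genes were higher in 20 of 40 combinations with named neuron clusters (all genes 10.9%) and lower in 21 of 28 with Unknown clusters (all genes 27.1%). Rab3a, the main isoform of brain synapses, was higher in 8 named neuron clusters by 0.28 (CGRP-e) to 0.62 (LTMR). It was in 99.0 to 100.0% of the cells of 7 of them and in 82.3% of Peptidergic 488p cells. In the Unknown clusters it was in 7.5 to 32.2% of cells (-2.30 to -1.52). Rab3c was higher in 7, led by Heat.sen (0.86), Cold.sen (0.74) and CGRP-e (0.70). Rab3b was higher in 3 of the 4 CGRP clusters and no other named neuron cluster: 86.9% of CGRP-z, 77.2% of CGRP-n and 71.7% of CGRP-e cells held it (0.43, 0.52 and 0.41), while it was in 5.8% of Non-peptidergic, 3.0% of Peptidergic 488p and 2.2% of SST cells, all lower. CGRP-a, LTMR, Cold.sen and Heat.sen had no entry, and the 12 clusters with none together held Rab3b in 11.1% of cells. Low.UMI.Pep had Rab3b higher (0.42), in 6.5% of cells and 16.9% of other cells. Rab3d, known for secretory granules of exocrine cells, was higher in SST (0.48, in 93.5% of cells) and LTMR (0.27, in 98.4%).

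**Figure D3:**
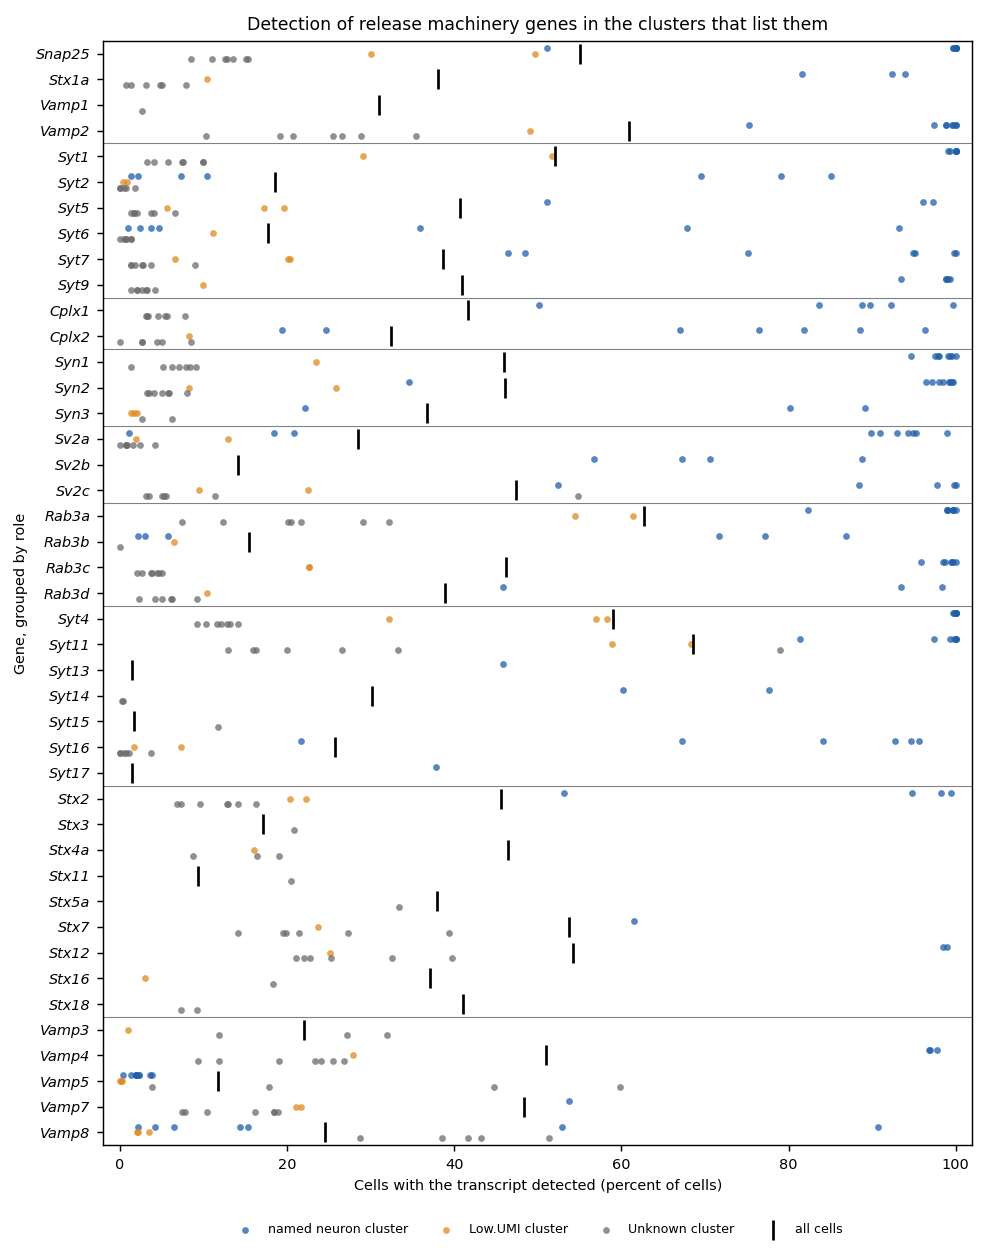
Percentage of cells with a transcript of 43 release machinery genes in the named neuron (blue), Low.UMI (orange) and Unknown (grey) clusters that list it, with the share of all cells as a black bar. For most core genes the blue points lie near 100% and the grey ones near 0%, while Syt2, Syt6, Rab3b and Sv2a have blue points at both ends.

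The synaptotagmins outside the group of fast and slow calcium sensors included the members with the lowest values in the Unknown clusters, Syt4 and Syt11. Syt4, which sits on dense-core vesicles and lacks calcium binding in its first C2 domain in mammals, was highest in CGRP-a (1.50), followed by CGRP-e (0.72), CGRP-z (0.67), CGRP-n (0.59), Non-peptidergic (0.58) and Cold.sen (0.41). In the authors' deposited table these clusters held it in 99.7 to 100.0% of cells. The 7 Unknown clusters were at -2.42 to -2.01, with 9.2 to 14.1% of cells. Syt11, a regulator of endocytosis, was higher in 7 named neuron clusters (0.34 to 0.59) and in Low.UMI.LTMR (1.15), and lower in all 7 Unknown clusters. In 6 of those it was in 13.0 to 33.3% of cells, but in Unknown.2 it was in 79.0% of cells and 67.6% of other cells while its fold change was -0.71. Unknown.2 cells thus held Syt11 often, at a lower average amount than other cells.

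Syt16 followed the CGRP group, with 0.69 in CGRP-n, 0.60 in CGRP-a, 0.57 in CGRP-e and 0.51 in CGRP-z, in 84.1 to 95.6% of cells, and was also higher in Heat.sen (0.36). Heat.sen had 2 members that no other cluster listed: Syt13, held by 45.9% of the cluster and 0.9% of other cells (0.30), and Syt17, in 37.8% and 1.0% (0.29). Syt14 was higher in CGRP-a (0.38) and Heat.sen (0.28). Syt15 was listed only for endothelial-like Unknown.1, where 11.7% of the cluster and 0.7% of other cells held it (0.32).

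The syntaxins outside the synaptic complex and the remaining VAMPs serve traffic at the plasma membrane, endosomes, Golgi and endoplasmic reticulum of most cells. Stx2, a plasma membrane syntaxin, still followed the neurons: lower in all 7 Unknown clusters (-0.74 to -0.56) and higher in Peptidergic 488p (0.46), CGRP-e (0.28) and SST (0.27), but lower in LTMR (-0.25). The endosomal syntaxin genes Stx7 and Stx12 were each lower in 6 Unknown clusters. Stx12 was higher in Heat.sen (0.57) and Cold.sen (0.29). Stx4a was listed in 4 clusters, Stx16 and Stx18 in 2 each and Stx5a in 1. Stx11, a syntaxin of immune cells that is needed for the killing function of lymphocytes, was listed once, as higher in macrophage-like Unknown 488p (0.90, 20.5% of the cluster and 9.2% of other cells). Stx3, known for apical membranes of epithelia and ribbon synapses, was listed once, as higher in Unknown.1 (0.41).

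Vamp7, of late endosomes, was lower in all 7 Unknown clusters (-0.78 to -0.48), in 7.5 to 18.9% of their cells. It was higher in Low.UMI.Pep (0.42) and Low.UMI.Nonpep (0.41). The 1 value in a named neuron cluster, in Peptidergic 488p (0.37), did not pass the filter. The 10 clusters with no entry, Low.UMI.LTMR and the other named neuron clusters, together held Vamp7 in 89.9% of cells. Vamp4, of the Golgi, was lower in 6 Unknown clusters and higher in 3 named neuron clusters (0.25 to 0.34). Vamp3, of recycling endosomes, was higher in Unknown.1 (0.58) and Unknown.2 (0.37). Vamp5 and Vamp8 also ran against most members: higher in some Unknown clusters and lower in most named neuron clusters that list them. In the authors' deposited table Vamp5, first known from muscle, was in 59.8% of endothelial-like Unknown.1 cells and 6.9% of other cells (1.37), and in 44.8% of Unknown.2 cells and 8.5% of other cells (0.79). It was lower in 8 named neuron clusters and in all 3 Low.UMI clusters, in 0.0 to 3.8% of their cells. Vamp8, a VAMP of late endosomes and of secretion in blood and gland cells, was higher in Unknown 488p (1.04, in 51.4% of cells and 24.1% of other cells), Unknown.5 (0.69), Unknown.1 (0.56) and Unknown.2 (0.46).

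Vamp8 had an exception among the neurons. The SST cluster held it in 90.7% of cells, against 20.5% of other cells (0.42, higher), a larger share than in any Unknown cluster that lists it, where 28.7 to 51.4% of cells held it. Non-peptidergic cells followed with 52.9%, where the fold change was negative (-0.33). LTMR (4.2%), CGRP-a (6.5%), CGRP-e (14.4%) and Peptidergic 488p (2.2%) were lower, at -0.55 to -0.48.

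Vamp5 and Vamp8 are neighbours on mouse chromosome 6, with 1 gene, a long non-coding RNA, between them in the RefSeq annotation of GRCm38.p6. Since both are higher in the endothelial-like and satellite glia-like clusters, the 250 bases before their start sites are shown, with those of the neuronal Syn1 for contrast. The sequences are from RefSeq, build GRCm38.p6, 5′ to 3′ on the strand of the gene: Syn1 at chrX:20920919-20921168, minus strand, Vamp5 at chr6:72380469-72380718, minus strand, and Vamp8 at chr6:72390668-72390917, minus strand. Capitals mark matches, on either strand, to CAGCACC (from the left part of the RE1 element bound by the repressor REST), TGACGT (from the cyclic AMP response element), GGGCGG (the GC box), CCAAT and TATAAA.
Syn1: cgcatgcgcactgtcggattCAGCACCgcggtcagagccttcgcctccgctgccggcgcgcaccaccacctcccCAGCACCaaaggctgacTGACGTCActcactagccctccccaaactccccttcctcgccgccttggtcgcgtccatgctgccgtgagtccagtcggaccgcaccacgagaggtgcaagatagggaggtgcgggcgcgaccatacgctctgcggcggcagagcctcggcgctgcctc
Vamp5: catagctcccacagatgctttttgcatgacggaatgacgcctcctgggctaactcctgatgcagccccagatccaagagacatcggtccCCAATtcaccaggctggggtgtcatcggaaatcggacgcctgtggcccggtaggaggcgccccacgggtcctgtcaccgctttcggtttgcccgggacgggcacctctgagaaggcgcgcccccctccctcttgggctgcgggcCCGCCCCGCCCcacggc
Vamp8: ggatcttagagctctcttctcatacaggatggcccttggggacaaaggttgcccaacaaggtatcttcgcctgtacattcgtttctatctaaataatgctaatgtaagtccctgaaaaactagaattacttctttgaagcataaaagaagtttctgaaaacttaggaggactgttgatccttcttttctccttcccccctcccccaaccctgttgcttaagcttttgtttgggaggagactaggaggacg

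The Syn1 promoter held CAGCACC at 230 and 176 bases before the start, and TGACGT on both strands as an overlapping palindrome. The Vamp5 promoter held a CCAAT match and GGGCGG in reverse, 17 and 12 bases before the start. None of the 5 motifs was found in these 250 bases of Vamp8. Of the 44 members 33 had a promoter in the table, and CAGCACC was in 4 of them: Stx11, Sv2c, Syn1 and Syt15. Of these, Stx11 and Syt15 were listed only as higher in an Unknown cluster. The 4 made up 12.1%, against 7.71% of the 7147 matched genes of the marker table and 5.73% of all 32851 promoters. GGGCGG was in 27 (81.8%, 65.1% and 32.7%), CCAAT in 12 (36.4%, 39.2% and 33.8%), TGACGT in 3 (9.09%, 10.9% and 6.47%) and TATAAA in 4 (12.1%, 8.63% and 12.4%). A match describes letters only, and no binding was measured.

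Within the named neurons, 14 members were higher in some clusters and lower in others: Snap25, Syt1, Syt2, Syt6, Syt7, Cplx1, Cplx2, Syn2, Syn3, Sv2a, Sv2c, Rab3b, Stx2 and Vamp8. How many of all genes did the same was not counted, so this number was not read as particular to the members. In shares of cells the widest ranges were those of Sv2a (1.1% in SST to 99.0% in LTMR), Syt6 (1.0% in Heat.sen to 93.2% in Non-peptidergic), Vamp8 (2.2% in Peptidergic 488p to 90.7% in SST), Rab3b (2.2% in SST to 86.9% in CGRP-z) and Syt2 (1.3% in SST to 85.1% in CGRP-a). SST stood at the low end for 3 of these 5 and at the high end for 1. Narrow ranges were found too: Syt4 ranged over 0.3 points, Syt1 over 0.9, Rab3c over 4.1 and Syn1 over 5.4 among the named neuron clusters that list them. None of them was listed for Peptidergic 488p, so these ranges leave that cluster out. Clusters with no entry together held Syt4 in 91.1%, Syt1 in 62.6%, Rab3c in 60.1% and Syn1 in 31.2% of cells. For Syt1, Rab3c and Syn1 they include Low.UMI clusters.

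**Figure D4:**
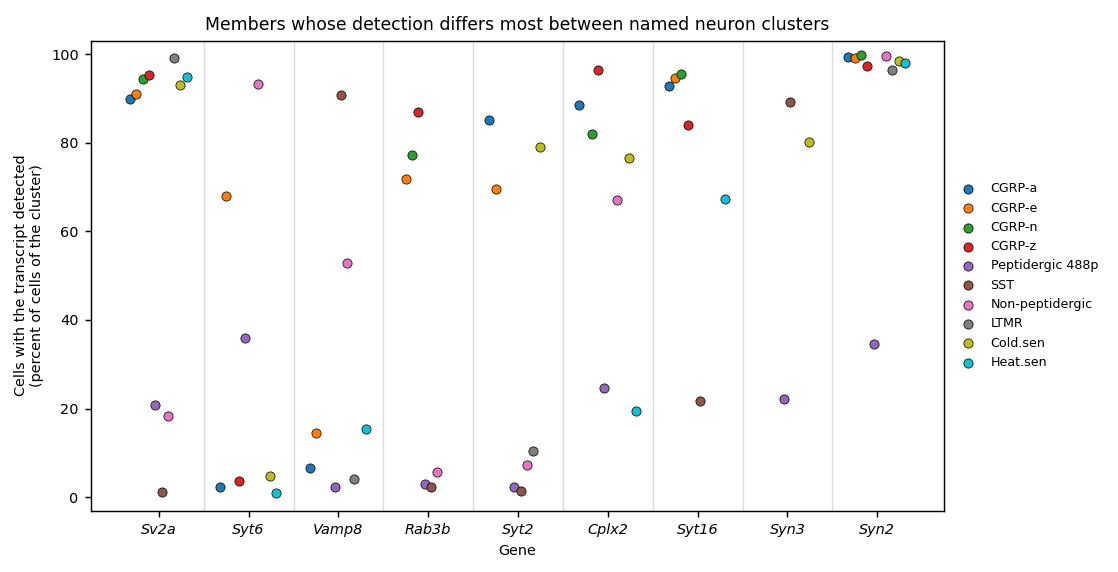
Percentage of cells with a transcript in each named neuron cluster (colours), for 9 members whose shares range over at least 60 points between listed clusters. Sv2a, Syt6, Vamp8, Rab3b and Syt2 each have clusters below 10% and above 80%, and for Syn2 Peptidergic 488p lies below the other clusters that list it.

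Of the 20 members listed for Peptidergic 488p and at least 1 other named neuron cluster, it had the lowest share for 13 (65.0%), among them Snap25, Vamp2, Rab3a, Syt11, Syn2 and Cplx1. The same held for 80.8% of the 2359 such genes of the whole table, so low shares in this cluster were not particular to the members. Its share of Rab3a was 82.3%, of Vamp2 75.3%, of Snap25 51.1% and of Syn2 34.6%. Of the 9 neuronal markers 7 were higher in this cluster and 0 lower, with a median share of 99.1%. The sources used here do not give the depth of its cells, and its part in these shares was not tested.

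Fold change and detection did not always go together. All 140 higher combinations in the named neuron clusters and all 12 in the Unknown clusters came with a larger share of cells than in other cells. Of all higher genes, 0.0% had a smaller share in the named neuron clusters and 4.53% in the Unknown clusters. The larger shares were thus not particular to the members. In the Low.UMI clusters all 25 higher combinations came with a smaller share, as did 95.3% of all higher genes there, so the members did there as most genes did. The depth of these cells is in their name only, and its part in this was not tested. Rab3a in Low.UMI.Pep is an example, in 61.4% of cells and 63.0% of other cells with a fold change of 0.74 in the authors' deposited table, as is Stx2 in Low.UMI.Nonpep, in 22.3% and 48.7% (0.57). Conversely, 8 of the 33 lower combinations in named neuron clusters came with a larger share, 4 of them in CGRP-a (Syt1, Syt7, Cplx1 and Sv2c), 2 in Non-peptidergic (Cplx2 and Vamp8) and 2 in LTMR (Syn2 and Stx2). Among all lower genes of the named neuron clusters this was so for 46.5%.

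**Figure D5:**
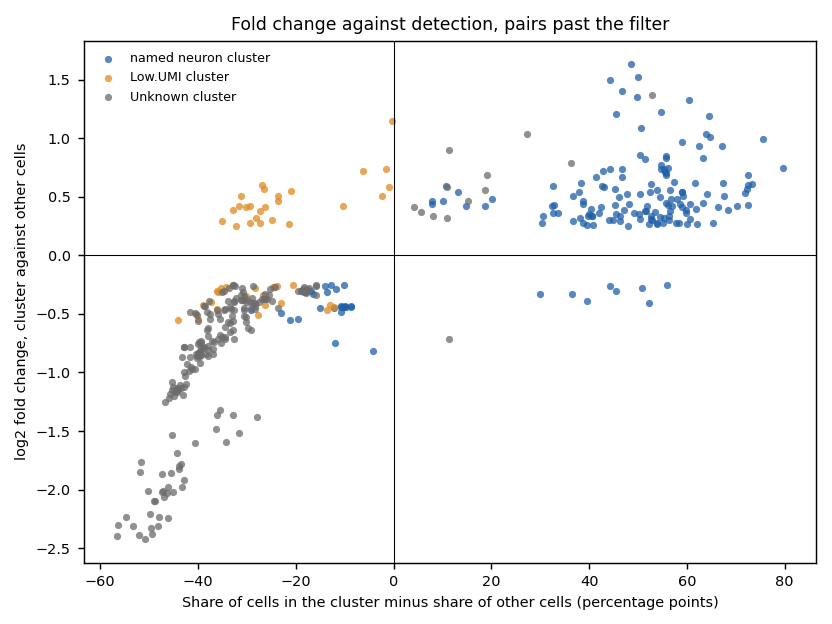
log2 fold change of a cluster against other cells (vertical) and the share of cells in the cluster minus that of other cells in percentage points (horizontal), for each release machinery gene and cluster past the filter. All 25 higher points of the Low.UMI clusters (orange) lie left of 0, and 8 lower points of named neuron clusters (blue) lie to the right.

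The share of all cells that held each transcript follows from the table, since it must come out alike from every cluster that lists the gene. The values from different clusters differed by at most 0.094 percentage points. Syt11 was in 68.6% of all cells, Rab3a in 62.8%, Vamp2 in 60.9%, Syt4 in 59.1% and Snap25 in 55.05%. The rarest members were Syt13 and Syt17, each in 1.46%, Syt15 in 1.71% and Stx11 in 9.41%. The same sum gives the share in clusters that are not listed. Sv2a lacked an entry for Low.UMI.Pep alone, and there 6.5% of cells must have held it. Snap25 lacked entries for SST, Non-peptidergic and Low.UMI.LTMR, which together held it in 87.5% of cells, so a missing entry there did not mean a missing transcript. For Syt7 the 3 clusters without an entry, CGRP-e, CGRP-n and CGRP-z, held it in 93.5% of cells.

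Other genes of release and vesicle recycling were counted in the same way. A list of 63 genes of active zones, vesicle proteins, fusion factors and endocytosis had 52 in the table. In the named neuron clusters 184 of 520 combinations were higher (35.4%, all genes 10.9%) and 22 lower (4.23%, all genes 6.72%). In the Unknown clusters 13 of 364 were higher (3.57%, all genes 10.2%) and 227 lower (62.4%, all genes 27.1%). In the Low.UMI clusters 22 of 156 were higher (14.1%, all genes 10.9%) and 40 lower (25.6%, all genes 20.6%). In the authors' deposited table the largest values in named neuron clusters were those of Erc2, an active zone scaffold, in Heat.sen (2.15) and Unc13c, a priming factor, in SST (1.70). The smallest were those of Synpr, a vesicle protein (-1.43), and Rph3a, an effector of Rab3 (-0.93), both in SST. Synpr was also the highest in the Low.UMI clusters, at 1.52 in Low.UMI.Nonpep, ahead of Sncg, the gene of gamma-synuclein (1.43), and among the lowest there, at -0.89 in Low.UMI.Pep, beside Erc2 (-0.86). In the Unknown clusters Picalm, a clathrin adaptor, was highest in Unknown 488p (1.88), followed by Sh3gl3, an endophilin, in Unknown.4 (1.04), and Sncg was lowest in Unknown.1 (-3.40), ahead of Dnm3, a dynamin, in Unknown 488p (-2.06).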

How the data were processed

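Single-cell RNA libraries (10x, 3′ end) were made from NMP-positive and NMP-negative dorsal root ganglion cells. The labels list 8 samples, 4 per population, whose descriptions differ within a population only in a lane number, so they were read as lanes of 1 library. Their extraction protocol speaks of nuclei, while the design text speaks of sorted cells. Seurat was used, per the submitters' processing notes. Not given in the sources used here: aligner, genome build, annotation, cell filters, normalization, clustering and the treatment of doublets.

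The deposited table lists 56694 combinations of a gene and a cluster. For a cluster set against all other cells it gives the authors' log2 fold change, the fraction of cells on either side in which the gene was detected (printed here as a percentage), a p-value and an adjusted p-value. Listed entries have p-values up to 0.01, an absolute log2 fold change of at least 0.25 and detection in at least 10.0% of cells on either side. In 50167 of the 50167 entries checked, the authors' adjusted p-value was 32285 times the p-value. No column of a sample exists, so no test over samples was made and no further statistic was fitted. The number of cells and the depth are unknown.

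Combinations past an adjusted p-value of 0.05 were counted by sign, with Python 3.11.15, pandas 2.3.3 and numpy 2.4.6. A combination counts against all 44 members or all 9229 genes, listed or not. Of the 880 combinations of the members, 454 were listed and 423 passed. The share of all cells in each cluster was solved from the paired detection fractions of 6748 genes differing by at least 5 percentage points. The calculation was tested on simulated data.

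Members enter all counts, but 1 of them is not reported here by name or drawn by name. Core genes are described throughout, other members where they lead or trail a cluster, and 2 genes at either end of each class for the list of other release genes. Members outside that rule, and the promoters shown, were chosen after their values were seen. The members and lists were chosen with earlier results of these data known. Promoters are from RefSeq (GRCm38.p6). Alternatives were other limits on the p-value, fold change and share of cells, core genes only, and leaving out Peptidergic 488p.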

Additional observations from a re-analysis of the deposited data

How the results depend on the processing

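No paired analysis was possible because the table has no column of a sample. Higher members in named neuron clusters numbered 140 (31.8%, all genes 10.9%). With an absolute log2 fold change of at least 0.5 and 1 they numbered 63 (14.3%, all genes 4.47%) and 12 (2.73%, all genes 1.15%). Lower ones there numbered 33 (7.50%, all genes 6.72%), and 4 (0.909%, all genes 2.89%) and 0 (all genes 0.881%) at those limits. They numbered 14 with an adjusted p-value under 1e-10 (3.18%, all genes 2.47%) and 17 with detection in at least 25% of cells (3.86%, all genes 5.0%). Over core genes alone they numbered 19. In the Unknown clusters the 189 lower combinations became 122 (39.6%, all genes 13.9%) and 59 (19.2%, all genes 4.42%) at the fold limits. The 12 higher ones became 7 (2.27%, all genes 7.87%) and 2 (0.649%, all genes 3.81%). Under 1e-10 the higher ones numbered 7 (2.27%, all genes 7.58%), and over core genes 1. In the Low.UMI clusters the 25 higher ones became 10 (7.58%, all genes 2.36%) and 1 (0.758%, all genes 0.433%) at the fold limits, and 13 over core genes. They became 0 when the share of cells had to differ in the same direction (all genes 0.506%). The 24 lower ones there became 3 (2.27%, all genes 8.66%) and 0 (all genes 2.21%) at the fold limits and 14 over core genes. These limits leave fewer combinations by construction. The other settings kept each of the 6 counts within 1.5 times, as did leaving out Peptidergic 488p (132 higher and 26 lower), an alternative chosen after seeing the data. Of the 40 counts of single clusters, 5 moved beyond 1.5 times without the p-value filter, 13 under 1e-10, 28 and 35 at the fold limits, 8 at 25% of cells, 5 with matching shares and 15 over core genes. Unknown depth limits every share of cells.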
